A study of Arabidopsis thaliana with 6 samples.

Results

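The 66 genes described here were far more abundant in shoot apices of *vip3-1* plants than in those of wild-type plants (WT). They were chosen by their measured levels, out of the 33554 genes in the count table. The level used was CPM, the count of a gene divided by the total count of its library and multiplied by 1000000, with no further scaling. A gene was kept if its lowest *vip3-1* library had at least 1 CPM and at least 4 times the CPM of its highest WT library, and 75 genes met this. A set of 17 identifiers was then left out by name, 9 of which met the thresholds, and 66 members remained. Among the 17679 genes with at least 1 CPM in every *vip3-1* library, 0.424% met the thresholds. The mirror thresholds, applied for genes lower in *vip3-1*, were met by 72 genes. Because the contrast between the genotypes chose the members, their levels and folds are given as a description and were not tested.

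*VIP3* encodes a WD-repeat subunit of Paf1c, the Polymerase-Associated Factor 1 complex, which travels with RNA polymerase II and is known for its part in transcription elongation and in histone modification over transcribed genes. In plants the complex is best known for keeping the flowering repressor *FLC* active, and its loss alters flowering, phyllotaxis and flower structure. WT was Col-0 and *vip3-1* was a T-DNA insertion line of *VIP3*, both kept first at 21°C in short days and later at 16°C under continuous light. The dissected apices were those of the primary inflorescence, from which flowers older than stage 4 had been removed, so they held meristems and very young flowers. Each tube held 30 to 35 apices, 6 tubes were filled per genotype and RNA from 2 tubes was pooled per library, which gave 3 libraries per genotype. These libraries are called technical triplicates in the methods, so p-values measure only the spread between pools of apices. In such bulk tissue, more cells of a type and more RNA per cell cannot be told apart.

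Libraries held between 50040048 and 69033269 counts. *VIP3* (AT4G29830, chromosome 4 of TAIR10.1 from 14597559 to 14599300) had 42.2 ± 0.555 CPM in WT and 6.66 ± 0.771 CPM in *vip3-1* (SD, n = 3 libraries each). WT replicate 3 stood apart from the other libraries. Its 17 genes of tapetum and pollen summed to 1076 CPM, against 79.2 and 89.5 CPM in WT replicates 1 and 2 and between 46.2 and 151 CPM in *vip3-1*. Its 18 genes of leaf mesophyll and photosynthesis summed to 11742 CPM against 8105 and 8390 CPM, and *vip3-1* libraries had between 4145 and 6198 CPM. The 15 genes of seed storage and embryo summed to at most 1.37 CPM in any library. The 21 genes of meristem and boundary, 1 of them left out by name, summed to 1267 to 1522 CPM in WT and 1729 to 1765 CPM in *vip3-1*. The 13 genes of vascular tissue summed to 203 to 263 and 283 to 335 CPM, and the 14 of carpel and ovule to 338 to 395 and 406 to 458 CPM. The 10 genes of trichome and epidermis were lower in *vip3-1*, at 1195 to 1360 CPM against 1433 to 1558 CPM. None of the 66 members is on these marker lists, and the part that a difference in tissue had in their levels was not tested. Without WT replicate 3 all 66 members met the thresholds by construction, and 90 genes did in all.

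The regulatory sequence next to 4 members is shown because 3 of them hold the P1BS element, GNATATNC, the site that PHR1, the main transcription factor of the phosphate starvation response, binds in Arabidopsis. Each line gives the 250 bases before the annotated gene start, read 5′ to 3′ on the gene's own strand from the RefSeq TAIR10.1 genome, with P1BS in capitals. *PLDP2* lies on the plus strand (window chr3:1634944-1635193), and the windows of AT1G08165 (chr1:2562317-2562566), AT1G23110 (chr1:8198332-8198581) and AT5G20790 (chr5:7040920-7041169) are on the minus strand.
PLDP2: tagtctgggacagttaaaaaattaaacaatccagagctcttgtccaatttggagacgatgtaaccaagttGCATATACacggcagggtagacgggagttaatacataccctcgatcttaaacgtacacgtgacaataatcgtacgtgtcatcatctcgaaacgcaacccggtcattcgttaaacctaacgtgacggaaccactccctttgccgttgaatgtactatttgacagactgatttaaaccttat
AT1G08165: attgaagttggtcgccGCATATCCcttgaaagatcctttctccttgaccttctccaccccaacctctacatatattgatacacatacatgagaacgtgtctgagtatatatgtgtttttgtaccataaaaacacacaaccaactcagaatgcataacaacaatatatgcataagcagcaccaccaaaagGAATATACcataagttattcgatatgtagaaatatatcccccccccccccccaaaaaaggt
AT1G23110: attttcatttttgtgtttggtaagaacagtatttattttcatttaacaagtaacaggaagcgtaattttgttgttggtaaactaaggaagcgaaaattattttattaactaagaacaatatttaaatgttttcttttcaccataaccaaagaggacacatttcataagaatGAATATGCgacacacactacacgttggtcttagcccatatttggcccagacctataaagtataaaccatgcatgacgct
AT5G20790: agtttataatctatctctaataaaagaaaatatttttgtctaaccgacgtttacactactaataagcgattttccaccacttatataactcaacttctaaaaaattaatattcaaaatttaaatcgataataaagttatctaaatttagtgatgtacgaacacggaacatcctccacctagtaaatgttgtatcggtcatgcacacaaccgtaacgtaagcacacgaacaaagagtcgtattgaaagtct
The P1BS match of *PLDP2* begins at position -180 from the gene start, and that of AT1G23110 at -79. AT1G08165 holds matches at -234 and -61. AT5G20790, the member with the largest ratio that could be computed, has no P1BS in this window.

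Windows of 250 bases before to 50 bases after the start were searched in all 66 members and in 32806 annotated genes, on both strands. P1BS was found in 8 members, 12.1% of them, and in 6.08% of all genes, or 6.13% of the genes with at least 1 CPM in every *vip3-1* library. Besides the 3 shown, the members with P1BS were AT1G08310, AT3G44510, *XTH19*, *MYB9* and the non-coding RNA AT5G53048. The as-1 core TGACG was in 28.8% of members and 22.8% of all genes, and the W-box core TTGAC, which can overlap it, in 48.5% and 50.02%. TATAAA was in 45.5% of members and 50.03% of genes, and the G-box CACGTG in 7.58% and 6.90%. The telo-box AAACCCTA was in 3.03% of members against 6.22% of genes, and GCCGCC in 1.52% against 2.71%. A match is a description of the letters and shows no binding.

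In *vip3-1* the means of the 66 members ran from 1.14 to 167 CPM, with a median of 4.20 CPM, and 36 of them lay between 1 and 5 CPM. In WT, 48 members were below 1 CPM in every library, and the median of their means was 0.306 CPM. The highest level of any member in any WT library was 8.13 CPM, in *FAF2*. The fold between the genotype means had a median of 12.1 over the members with WT counts. The ratio of the lowest *vip3-1* library to the highest WT library lay between 4 and 5 in 15 members, between 5 and 10 in 33, between 10 and 20 in 9 and above 20 in 8, and it cannot be computed for the member that had no count in WT. Just inside the threshold were the myb-like gene AT1G70000 at a ratio of 4.02, the transporter gene *ABCA10* at 4.02 and the reductase gene *SDR1* at 4.07. Just outside were AT3G13130 at 3.997 and *FADA* and AT4G00880, both at 3.91. On the other threshold, *IMD1* entered with a lowest *vip3-1* level of 1.01 CPM and AT2G24480 stayed out with 0.997 CPM.

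**Figure D1:**
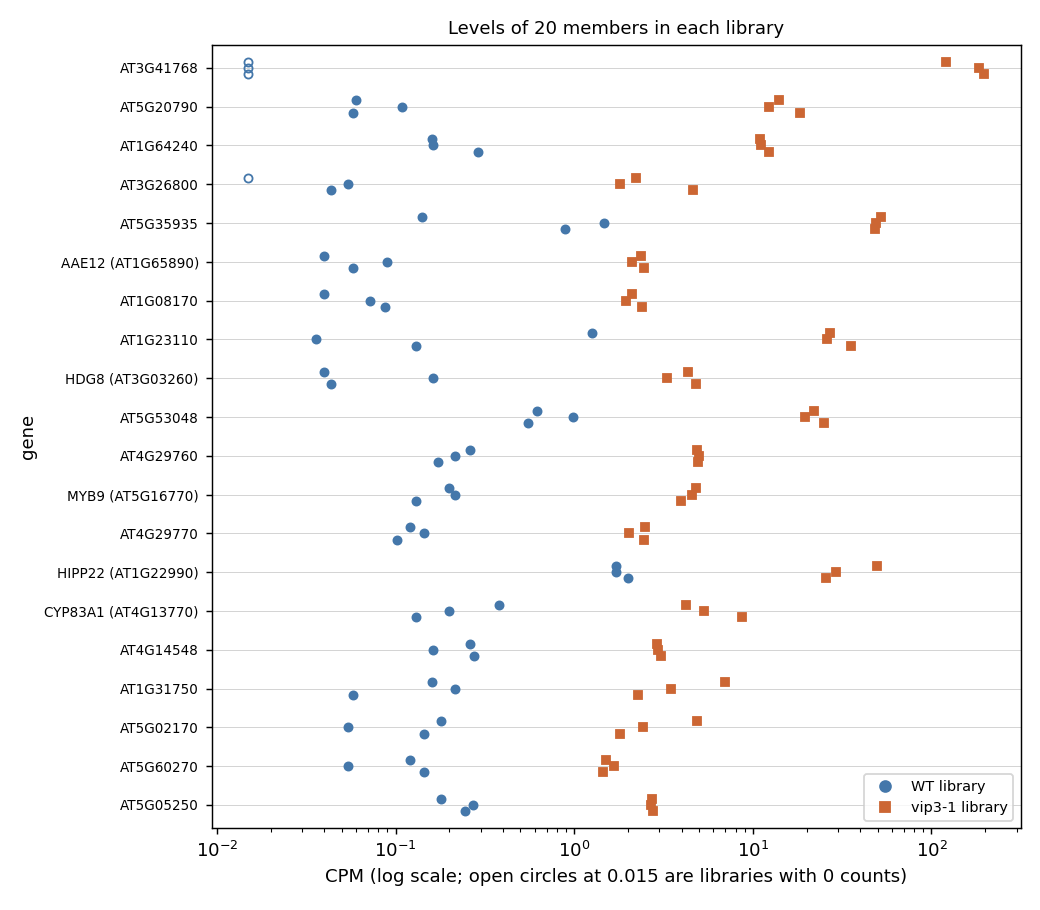
CPM on a log axis of the 20 members with the largest ratio of lowest *vip3-1* to highest WT library, 1 point per library, with circles for WT and squares for *vip3-1*. The *vip3-1* squares of AT5G35935 sit between 48.5 and 52.1 CPM and its WT circles between 0.140 and 1.48 CPM, and open circles mark WT libraries without a count, 3 for AT3G41768 and 1 for AT3G26800.

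RefSeq TAIR10.1 annotates 52 members as protein coding, 11 as pseudogenes, 1 as a ribosomal RNA, 1 as a long non-coding RNA and 1 as another non-coding RNA. Pseudogenes made up 16.7% of the members and 1.09% of the genes with at least 1 CPM in every *vip3-1* library, but 14.7% of all annotated genes in the table. Members with a single exon were 33.3% of the whole, against 14.6% of those expressed genes. Within coding genes these shares were 21.2% and 13.6%. The median transcript length of coding members was 1554.5 bases and that of the expressed coding genes 1786 bases. Chromosome 5 held 22 members, 33.3%, against 23.5% of the expressed genes, and chromosome 2 held 7, 10.6%, against 14.97%. Of the 22, 6 lay in a stretch of 2.01 Mb on chromosome 5, from 12081803 to 14089891. It holds 453 genes of the table, of which 54 were expressed. Some of the 22 are pseudogenes that share sequence, described below, and are not independent measurements. No test was made of these shares.

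**Figure D2:**
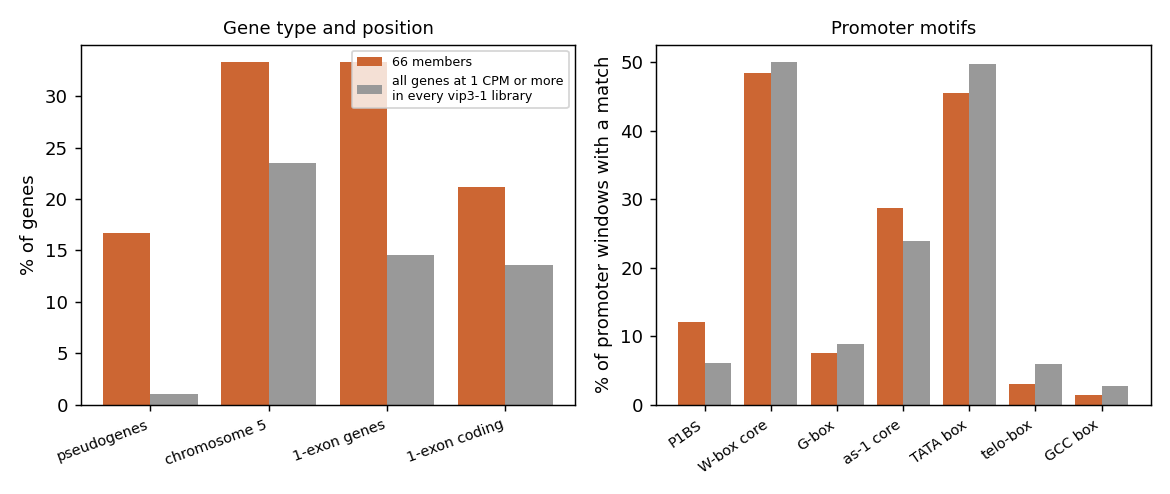
Percentage of the 66 members (orange bars) and of all genes with at least 1 CPM in every *vip3-1* library (grey bars) in classes of gene type and position (left) and with a promoter match to each of 7 motifs (right). Pseudogenes reach 16.7% against 1.09%, and P1BS 12.1% against 6.13%.

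The most abundant member in *vip3-1* was AT3G41768, a copy of the 18S ribosomal RNA gene, which forms the core of the small ribosomal subunit (chromosome 3 from 14197677 to 14199484). It had 0 counts in each WT library and 10427, 9888 and 6245 counts in *vip3-1* replicates 1, 2 and 3. These equal 196, 185 and 120.2 CPM, at least 3183-fold higher than 3 counts in each WT library would be. Its other annotated copy AT2G01010, which shares 99.9% of 1808 bases, had 0 CPM in WT and 0.0945 CPM in *vip3-1*. Reads from such near-identical copies can be split or dropped by the authors' mapping, so this value is uncertain.

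The non-coding RNA AT5G53048 (chromosome 5 from 21509861 to 21511850) had 0.5505, 0.991 and 0.6195 CPM in WT replicates 1, 2 and 3. In *vip3-1* it had 25.05, 19.5 and 22.02 CPM, 30.8-fold more between the means. It lies antisense to AT5G53050, a protein-coding gene that covers 88.2% of it. AT5G53050 had 27.3 ± 9.05 CPM in WT and 37.7 ± 4.18 CPM in *vip3-1*, a difference that missed the threshold (adjusted p = 0.0874, edgeR, quasi-likelihood F-test, Benjamini-Hochberg adjusted). The sources do not state whether counting used strand, so reads of the antisense pair cannot be told apart. The other non-coding RNA, AT4G14548, had 0.275, 0.162 and 0.2598 CPM in WT and 3.05, 2.93 and 2.91 CPM in *vip3-1*. It ends 57 bases from *IAA14*, an auxin response repressor gene on the opposite strand, which rose from 1.91 ± 0.173 to 4.42 ± 0.616 CPM (log2 fold change 1.31, adjusted p = 0.00435 in edgeR's test).

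The 11 pseudogene members had *vip3-1* means from 1.47 to 49.7 CPM and folds from 5.37 to 59.7. AT5G35935 (chromosome 5 from 14083388 to 14089891) was the most abundant, with 48.5, 48.6 and 52.1 CPM in the *vip3-1* replicates. Its WT replicates had 0.884, 1.48 and 0.1399 CPM, with replicate 3 far below the other WT libraries, while those of *vip3-1* were close together. AT1G64240 (chromosome 1 from 23837561 to 23839897) had 0.2897, 0.162 and 0.1599 CPM in WT and 12.3, 11.2 and 11.03 CPM in *vip3-1*. AT1G20390 had means of 0.972 ± 0.239 and 8.21 ± 1.16 CPM, and AT5G19097 had 0.0681 ± 0.0565 and 1.47 ± 0.243 CPM. *SADHU3-2* (AT3G42658), a non-coding retrotransposon of the Sadhu family that is annotated as methylated and silent in some natural accessions, had 0.116, 0.0901 and 0.1399 CPM in WT and 3.86, 1.33 and 3.696 CPM in *vip3-1*, with replicate 2 the lowest.

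Several pseudogene members share sequence. AT5G34790, AT5G34795 and AT5G34800 follow each other on the plus strand of chromosome 5, from 12966080 to 12973180, with gaps of 1064 and 264 bases. In WT they had between 0.380 and 1.80 CPM in any library, and in *vip3-1* between 4.15 and 14.3 CPM, highest in replicate 3 for all 3 genes. AT4G04130 on chromosome 4 matches a stretch of 3392 bases that runs into AT5G34795 and AT5G34800 at 91.5% identity, and 597 bases of AT5G34790 at 90.8%. AT4G04130 itself had 0.145, 0.216 and 0.2198 CPM in WT and 2.65, 2.06 and 3.45 CPM in *vip3-1*. A second pair, AT5G27250 and AT5G35914, is 98.9% identical over 1060 bases. AT5G27250 had 0.739, 0.6304 and 0.5196 CPM in WT and 3.82, 3.74 and 4.39 CPM in *vip3-1*, and AT5G35914 had 0.319, 0.396 and 0.2998 and 1.82, 1.68 and 1.94 CPM. Pseudogenes within either group of copies are not independent measurements, and their separate values are uncertain. Among all 66 members, 5 had another place in the genome with at least 95% identity over at least 50% of the locus, and these were AT3G26800, AT3G41768, AT5G27250, AT5G34795 and AT5G35914.

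**Figure D3:**
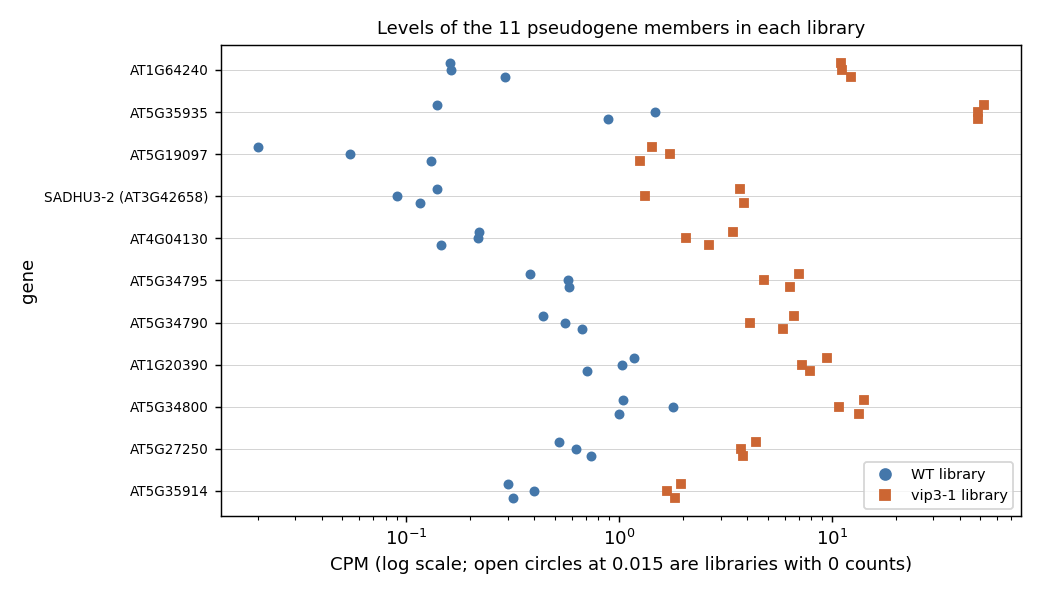
CPM on a log axis of the 11 pseudogene members in each library, with circles for WT and squares for *vip3-1*. The 3 neighbours AT5G34790, AT5G34795 and AT5G34800 lie between 0.380 and 1.80 CPM in WT and between 4.15 and 14.3 CPM in *vip3-1*.

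Members also stood next to each other elsewhere. Of the 66, 9 were direct neighbours of another member, in 5 neighbouring pairs. AT4G29760 and AT4G29770 are tandem genes annotated as targets of trans-acting siRNAs, small RNAs cut from *TAS* transcripts that silence genes in trans, and both are known as *HTT* genes for their link to heat tolerance. They lie on chromosome 4, and AT4G29770 ends 19.9 kb before *VIP3* begins. AT4G29760 had 0.174, 0.216 and 0.2598 CPM in WT and 4.95, 4.99 and 4.89 CPM in *vip3-1*, a very narrow spread in the mutant. AT4G29770 had 0.101, 0.144 and 0.1199 CPM in WT and 2.46, 2.04 and 2.48 CPM in *vip3-1*. In the window that reaches 50 kb beyond the pair and *VIP3*, 28 other genes were tested, of which 2 were called higher and 5 lower in *vip3-1*. Leaving out single libraries changed these counts to between 0 and 2 higher and between 1 and 7 lower, with 0 higher without *vip3-1* replicate 1, 2 or 3. Across all 20690 genes tested, 14.6% were called higher and 16.1% lower at an adjusted p under 0.05 in edgeR. Calls in the higher direction made up 47.7% of all calls, and 32.2% when library totals replaced TMM scaling, a change that moved the median log2 difference over the tested genes from -0.02 to -0.11. Of the other genes with the same annotation, AT5G18040 rose from 50.5 ± 3.11 to 95.6 ± 1.81 CPM (log2 fold change 1.02, adjusted p = 0.000529) and AT1G48180 from 0.309 ± 0.0799 to 1.61 ± 0.207 CPM (log2 fold change 2.46, adjusted p = 0.00362). AT5G18065 had 12.04 CPM in WT and 12.02 CPM in *vip3-1* (adjusted p = 0.589).

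*AGO3* (AT1G31290, chromosome 1 from 11188120 to 11192585), an ARGONAUTE protein that binds small RNAs, had 0.348, 0.306 and 0.2998 CPM in WT and 2.502, 1.59 and 1.81 CPM in *vip3-1*. Its neighbour and closest relative *AGO2*, on the same strand 2723 bases away, rose from 32.9 ± 2.402 to 43.3 ± 2.403 CPM (log2 fold change 0.49, adjusted p = 0.00789). Of 8 other *AGO* genes that were compared, all of them tested, 3 were called higher and 1, *AGO9*, lower (from 70.7 ± 12.8 to 28.2 ± 7.005 CPM, adjusted p = 0.00837). Over all tested genes, 14.6% were called higher and 16.1% lower. The count of higher *AGO* genes was 1 without WT replicate 1 or any 1 *vip3-1* library. It was 2 without WT replicate 2 and 4 without WT replicate 3. When single libraries were left out, the adjusted p reached 0.0704 for *AGO4* and 0.0738 for *AGO10*, the other called genes.

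Members grouped under transcription, chromatin or development numbered 10, among them AT4G03292, whose annotation names none of these roles. The most abundant was *FAF2* (AT1G03170, chromosome 1 from 768376 to 770684), 1 of a small plant family that can hold back the stem cell gene *WUSCHEL* and restrict meristem size. *FAF2* had 8.13, 6.12 and 1.898 CPM in WT and 62.2, 50.8 and 47.96 CPM in *vip3-1*, and WT replicate 3 was the lowest library. Its relative *FAF3* rose from 11.9 ± 6.32 to 42.5 ± 3.68 CPM (log2 fold change 1.93, adjusted p = 0.0201), a call that was lost without *vip3-1* replicate 1, 2 or 3 (adjusted p up to 0.0725). *FAF1*, with 9.92 and 10.5 CPM, and *FAF4*, with 2.23 and 1.82 CPM, missed the threshold (adjusted p = 0.633 and 0.703).

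*HDG8*, a homeodomain-leucine zipper factor of the class that acts in the epidermis, had 0.0435, 0.162 and 0.03997 CPM in WT and 4.83, 3.29 and 4.35 CPM in *vip3-1*. Of the 6 other *HDG* genes that were tested, edgeR called 0 higher and 2, *HDG2* and *HDG4*, lower. Over all tested genes the shares were 14.6% higher and 16.1% lower. The adjusted p of *HDG2* and *HDG4* went up to 0.114 and 0.0748 when single libraries were left out. DESeq2 and the replicate block each called 2 higher and 2 lower. *HDG7* had 2.33 ± 1.79 and 5.23 ± 0.294 CPM (adjusted p = 0.089 in edgeR's test, and between 0.00075 and 0.191 when single libraries were left out). *MYB9*, an R2R3 MYB factor, had 0.1304, 0.216 and 0.1998 CPM in WT and 3.95, 4.56 and 4.79 CPM in *vip3-1*. It overlaps the abundant gene *DOT2* on the opposite strand over 1447 bases, 59.4% of its length. *DOT2* had 111 ± 8.58 and 126 ± 4.73 CPM (log2 fold change 0.28, adjusted p = 0.0227, and up to 0.0894 when single libraries were left out), and the share of its reads in the *MYB9* count was not tested.

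AT5G32460, a B3-domain factor, had 3.65, 3.31 and 5.54 CPM in WT and 27.3, 33.5 and 38.7 CPM in *vip3-1*. AT1G70000, a myb-like factor, had 1.42, 1.44 and 2.16 and 8.67, 11.7 and 14.2 CPM. In both genes WT replicate 3 was the highest WT library and *vip3-1* replicate 3 the highest of the mutant. AT5G61890, an ERF-type factor, had 0.232, 0.07205 and 0.3797 CPM in WT and 2.48, 4.596 and 2.96 CPM in *vip3-1*. The *SAUR*-like auxin-responsive gene AT2G46690 reached 3.01 ± 1.02 CPM from 0.2599 ± 0.0282 CPM, and the RNase H-like gene AT4G03292 5.35 ± 0.356 CPM from 0.582 ± 0.161 CPM (SD, n = 3). The homeodomain-like gene AT2G38250 had a mean of 1.22 CPM in *vip3-1*, and its neighbour AT2G38255, a gene with a domain of unknown function 2177 bases away, 1.77 CPM. AT1G08170, a histone superfamily gene, had 0.0869, 0.07205 and 0.03997 CPM in WT and 2.41, 1.94 and 2.12 CPM in *vip3-1*. Its neighbour AT1G08165, on the same strand 452 bases away, had 0.608, 0.829 and 0.4197 and 11.5, 7.38 and 9.82 CPM. The next gene downstream, AT1G08160, is no member and rose from 4.501 ± 0.415 to 8.602 ± 1.49 CPM (log2 fold change 1.02, adjusted p = 0.00628).

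*SYN1* (AT5G05490, chromosome 5 from 1624206 to 1629269), the meiotic cohesin subunit also known as *REC8*, had 2.17, 2.34 and 1.06 CPM in WT and 13.96, 13.3 and 16.8 CPM in *vip3-1*, about level across the mutant libraries. The 3 other genes of its family had higher WT means. *SYN3* rose from 22.7 ± 5.21 to 34.98 ± 1.71 CPM (adjusted p = 0.0269, and up to 0.0948 when single libraries were left out). *SYN4* had 143 ± 9.11 and 164 ± 13.6 CPM (adjusted p = 0.0483), a call that was lost in 11 of 13 alternatives, among them the replicate block, and *SYN2* had 24.1 ± 3.06 and 22.02 ± 1.69 CPM (adjusted p = 0.816). The gene 340 bases downstream of *SYN1* on its strand, *MOP10*, had a mean of 0.0115 CPM in WT and 1.02 ± 0.0738 CPM in *vip3-1* (adjusted p = 0.0015 in edgeR's test). *PUM10*, of the Pumilio family that binds mRNA, had 0.203, 0.252 and 0.2398 CPM in WT and 1.32, 1.08 and 2.35 CPM in *vip3-1*. The nearby *PUM9* had 0.4399 and 0.427 CPM. Of 12 other Pumilio genes tested, 3 were called higher and 0 lower, beside 14.6% and 16.1% of all genes. Leaving out single libraries gave between 0 and 4 higher. *PUM19* rose from 0.130 ± 0.0882 to 0.636 ± 0.0676 CPM (adjusted p = 0.0196 in edgeR's test, and up to 0.0776 when single libraries were left out).

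Metabolic enzymes were the largest group, with 15 members. *PLDP2* (AT3G05630, chromosome 3 from 1635194 to 1640357), also called PLDζ2, is a phospholipase D that turns over membrane phospholipids and is induced by phosphate shortage. It had 1.42, 1.62 and 1.299 CPM in WT and 12.1, 9.94 and 12.7 CPM in *vip3-1*, a fold of 7.997 between the means. Its closest relative *PLDP1* had 36.1 ± 0.797 and 32.1 ± 2.03 CPM (adjusted p = 0.37). Of the 11 other phospholipase D genes tested, 1 was called higher and 3 lower by edgeR, beside 14.6% and 16.1% of all genes. *PLDALPHA3* rose from 1.73 ± 0.369 to 4.63 ± 0.577 CPM (adjusted p = 0.00603). *PLDALPHA2* fell from 4.28 ± 0.4796 to 0.633 ± 0.255 CPM (adjusted p = 0.00309), and *PLDGAMMA1* and *PLDDELTA* were called lower, with adjusted p up to 0.0768 and 0.0666 when single libraries were left out.

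*PLDP2* was the only member on a list of 53 genes of the phosphate starvation response, which was written with earlier results of these data known. The list shares 14 genes with the identifiers left out by name. Of its 30 remaining genes that were tested, 14 were called higher and 0 lower by edgeR, beside 14.6% and 16.1% of all genes. Beside -0.02 over all tested genes, the median log2 fold change of the 30 was 0.68. At an unadjusted p under 0.05 edgeR had 2 of them lower, and DESeq2 called 16 higher and 2 lower. With the replicate block the counts were 14 and 2, and leaving out single libraries gave between 11 and 19 higher and 0 or 1 lower. Among those that rose, the phosphatase gene *PAP12* went from 35.4 ± 1.98 to 59.7 ± 3.07 CPM (adjusted p = 0.00151), and the sulfolipid synthesis gene *SQD1* from 59.5 ± 6.36 to 136 ± 14.7 CPM (adjusted p = 0.0011). The regulator *PHR1* itself had 63.9 ± 7.001 and 64.4 ± 3.39 CPM (adjusted p = 0.347).

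*PFA-DSP2* (AT2G32960), of a phosphatase family that acts on inositol pyrophosphates, had 2.22, 2.13 and 2.82 CPM in WT and 30.1, 25.1 and 31.5 CPM in *vip3-1*. The family has 5 genes. *PFA-DSP1* rose from 0.584 ± 0.1297 to 2.28 ± 0.429 CPM (log2 fold change 2.05, adjusted p = 0.00468) and *PFA-DSP4* from 15.01 ± 0.413 to 24.3 ± 2.66 CPM (log2 fold change 0.79, adjusted p = 0.00231). *PFA-DSP3* and *PFA-DSP5* missed the threshold (adjusted p = 0.576 and 0.578). AT1G67600, of the acid phosphatase and haloperoxidase superfamily, had 1.17, 1.48 and 1.599 and 8.97, 7.46 and 8.57 CPM.

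AT5G26220 (GGCT2;1), a γ-glutamyl cyclotransferase that degrades glutathione, had 1.23, 1.66 and 0.699 CPM in WT and 15.99, 21.5 and 9.61 CPM in *vip3-1*, with replicate 3 the lowest in either genotype. It was the only member among 15 genes of sulfur deficiency. Of the 12 others tested, 5 were called higher and 0 lower by edgeR, beside 14.6% and 16.1% of all genes. The median log2 fold change of the 12 was 1.66, beside -0.02 over all tested genes. Of the 12, 0 were lower at an unadjusted p under 0.05, and 0 by DESeq2. The count of higher genes was 10 with the replicate block, 10 with DESeq2, 3 without WT replicate 1 and 8 without WT replicate 3. It was 1 without *vip3-1* replicate 1, 1 without replicate 2 and 3 without replicate 3. *LSU2* rose from 0.641 ± 0.251 to 3.403 ± 1.46 CPM (adjusted p = 0.0116) and the reductase gene *APR1* from 24.1 ± 12.6 to 75.2 ± 16.5 CPM (adjusted p = 0.0223, and up to 0.0782 when single libraries were left out).

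Sulfur-containing defence compounds, the glucosinolates, are made by 3 members. *CYP79B3* turns tryptophan into indole-3-acetaldoxime, a precursor of indole glucosinolates and of auxin, and had 1.68, 2.77 and 2.32 CPM in WT and 17.8, 17.5 and 13.03 CPM in *vip3-1*. *CYP83A1* acts in the aliphatic branch and had 0.1304, 0.198 and 0.3797 and 8.75, 5.31 and 4.22 CPM, with *vip3-1* replicate 1 more than 2 times replicate 3. *IMD1*, an isopropylmalate dehydrogenase of leucine synthesis and of methionine chain elongation, had 0.0869, 0.162 and 0.1599 and 1.79, 1.01 and 1.44 CPM. The indole-branch gene *CYP83B1* rose from 62.1 ± 16.3 to 143 ± 18.7 CPM (adjusted p = 0.00834). The far more abundant relatives of *IMD1* were *IMD2*, with 59.3 and 47.2 CPM (adjusted p = 0.0422, and up to 0.114 when single libraries were left out), and *IMD3*, with 50.6 and 52.6 CPM (adjusted p = 0.249).

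*NCED3* (AT3G14440, chromosome 3 from 4831286 to 4834015), which makes the first committed step of abscisic acid synthesis and answers to drought, had 0.2897, 0.432 and 0.2398 CPM in WT and 3.498, 3.77 and 11.4 CPM in *vip3-1*. *vip3-1* replicate 3 held 3.25 times the lowest mutant library. Of 16 other genes of abscisic acid and drought that were tested, 1, *KIN1*, was called higher and 2, *HAI1* and *ABF3*, lower. Both shares were below those of all genes, 14.6% higher and 16.1% lower. The median log2 fold change of the 16 was -0.08, beside -0.02 over all tested genes. *HAI1* fell from 49.9 ± 18.03 to 14.2 ± 3.73 CPM (adjusted p = 0.00756), while the adjusted p of *KIN1* and *ABF3* went up to 0.105 and 0.0616 when single libraries were left out. Within its family *NCED5* fell from 1.504 ± 0.477 to 0.289 ± 0.133 CPM (log2 fold change -2.28, adjusted p = 0.0161, and 0.0505 at most without a single library). *NCED2* had 0.464 ± 0.109 and 1.003 ± 0.336 CPM (adjusted p = 0.0484), a call that was lost in 8 of 13 alternatives.

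Nucleotide breakdown was represented by *NSH3*, a nucleoside hydrolase with 1.77, 1.13 and 2.098 CPM in WT and 8.56, 10.8 and 18.7 CPM in *vip3-1*, and by *PYD4*, an aminotransferase of pyrimidine breakdown with 0.5505, 0.432 and 0.739 and 7.32, 10.4 and 7.43 CPM. The other tested nucleoside hydrolase genes, *URH1* and *URH2*, missed the threshold (adjusted p = 0.673 and 0.0662). *AAE12*, an acyl-activating enzyme, had 0.0579, 0.0901 and 0.03997 CPM in WT and 2.45, 2.11 and 2.37 CPM in *vip3-1*. Its tandem relative *BZO1*, 90.7% identical over 1082 bases, had 0.01201 and 0.0627 CPM. The 4 other enzyme genes, the oxidoreductase AT1G10810, the reductase *SDR1* and the hydrolases AT1G08310 and AT3G44510, had means between 0.111 and 0.942 CPM in WT and between 2.03 and 6.42 CPM in *vip3-1*.

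**Figure D4:**
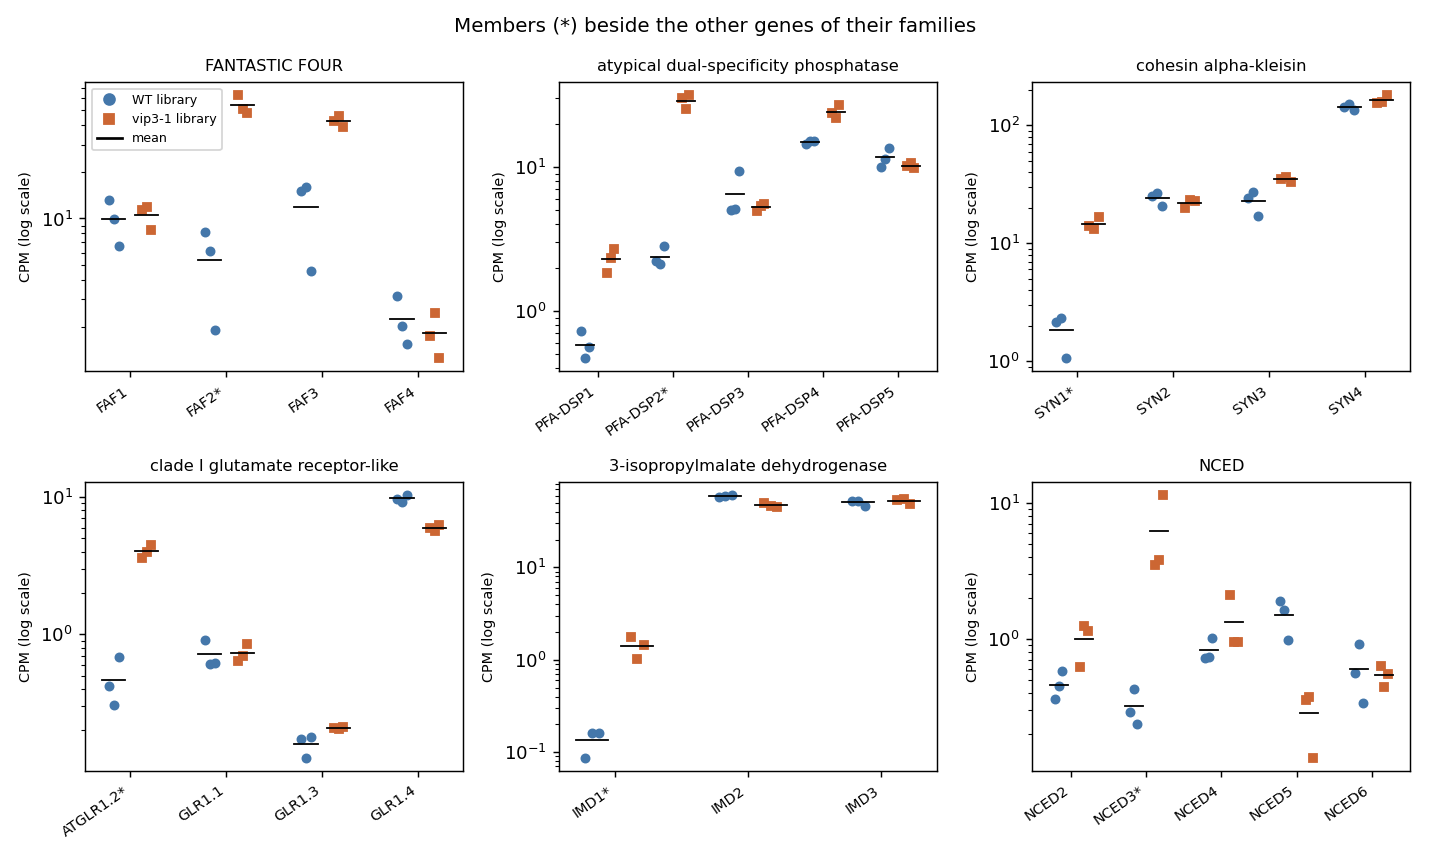
CPM on log axes, 1 point per library with bars at the means, of 6 gene families that hold a member, marked by an asterisk. *FAF2* and *FAF3* are higher in *vip3-1* while *FAF1* and *FAF4* overlap between genotypes, and *IMD1* reaches 1.41 CPM on average in *vip3-1* below the 47.2 and 52.6 CPM of *IMD2* and *IMD3*.

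Cell wall genes were represented by *XTH19*, a xyloglucan endotransglucosylase, with 0.4201, 0.342 and 0.1199 CPM in WT and 2.84, 3.05 and 1.93 CPM in *vip3-1*, and by the laccase gene *LAC11*, active in lignin formation, with 0.348, 0.324 and 0.3597 and 2.48, 1.53 and 2.21 CPM. Of 17 other *XTH* genes that were tested, 6 were called higher and 4 lower, beside 14.6% and 16.1% of all genes. These counts were 4 and 4 without WT replicate 1, 2 and 3 without WT replicate 2, and 5 and 5 without WT replicate 3. Without *vip3-1* replicates 1, 2 and 3 they were 2 and 2, 2 and 1, and 3 and 2, and with the replicate block 5 and 4. *XTH15*, whose call was kept in every alternative, fell from 227 ± 88.004 to 61.9 ± 4.58 CPM (log2 fold change -1.78, adjusted p = 0.00677), and *XTH7* rose from 1.07 ± 0.247 to 3.91 ± 0.454 CPM (log2 fold change 1.96, adjusted p = 0.00343). Of 6 other laccase genes tested, 1 was called higher and 1 lower, beside 14.6% and 16.1% of all genes. *LAC8* was called higher, with an adjusted p of 0.0415 in edgeR's test and up to 0.132 without a single library. *LAC13* fell from 8.84 ± 0.7998 to 5.16 ± 0.261 CPM (adjusted p = 0.00926).

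A group of 10 members was set as transport, receptor and defence genes. It also took in AT1G56040, AT4G11040 and AT2G32340, whose annotations name none of these roles. *HIPP22*, a predicted metal-binding isoprenylated protein, had 2.01, 1.71 and 1.72 CPM in WT and 25.7, 29.2 and 49.5 CPM in *vip3-1*, the fourth highest mutant mean of all members. AT5G02170, an amino acid transporter family gene, had 0.145, 0.05403 and 0.1799 and 1.81, 2.43 and 4.87 CPM. *ABCA10* had 0.464, 0.756 and 0.4796 and 3.198, 3.05 and 3.04 CPM, and its neighbour *ABCA9*, 485 bases away on the other strand, had 0 counts in every WT library and 0.35997 ± 0.1199 CPM in *vip3-1*. The glutamate receptor-like gene *GLR1.2* had 0.4201, 0.306 and 0.679 and 3.61, 3.98 and 4.49 CPM. Its tandem neighbour *GLR1.3* had 0.1599 ± 0.0295 and 0.208 ± 0.00328 CPM (adjusted p = 0.342), and *GLR1.4* fell from 9.78 ± 0.576 to 5.99 ± 0.327 CPM (log2 fold change -0.61, adjusted p = 0.00686). The lectin receptor kinase gene AT5G60270 had a *vip3-1* mean of 1.54 CPM, the TIR-NBS-LRR gene AT3G51570 1.14 CPM, and the defensin gene *PDF2.1* 2.47 CPM. The U-box gene AT1G56040 had 0.0435, 0.0901 and 0.3997 CPM in WT and 3.37, 3.55 and 8.89 CPM in *vip3-1*. AT4G11040, a PP2C-type protein known for seed dormancy, reached a mean of 1.41 CPM, and the TraB family gene AT2G32340 had 2.1004, 2.05 and 1.44 and 13.4, 12.8 and 13.4 CPM.

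The remaining 10 members have no assigned role here. AT5G20790 (chromosome 5 from 7039674 to 7040919) had 0.0579, 0.108 and 0.05995 CPM in WT and 18.3, 12.3 and 13.98 CPM in *vip3-1*, a fold of 198 between the means with at most 6 counts in a WT library. AT1G23110 had 0.1304, 0.03602 and 1.26 CPM in WT and 35.3, 26.2 and 27.1 CPM in *vip3-1*. Its WT replicate 3 was 15.1 times the mean of the other WT libraries, and without it the ratio of lowest mutant to highest WT library went from 20.8 to 201. AT3G24780, of an uncharacterized conserved family, had 0.826, 0.6304 and 2.72 and 26.9, 22.4 and 30.98 CPM, with the same library high. AT3G26800 had at most 3 counts in each WT library and 4.65, 1.81 and 2.21 CPM in *vip3-1*. AT1G72100 carries a late embryogenesis abundant domain and had 0.145, 0.108 and 0.0999 and 1.43, 1.36 and 2.95 CPM. AT5G05250 had 0.246, 0.2702 and 0.1799 and 2.76, 2.69 and 2.73 CPM, the tightest mutant libraries with those of AT4G29760. AT4G13680 reached a mean of 1.67 CPM and the proline-rich gene AT1G31750 4.25 CPM.

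The *vip3-1* libraries also differed among themselves in the members, and the values that follow were not tested. Of the members with a mean of up to 20 CPM in *vip3-1*, 57 in all, the median SD of log2 CPM over the 3 mutant libraries was 0.25, against 0.13 for the 7754 genes in that range. Levels within that range were not matched, and 36 members lay between 1 and 5 CPM. The choice of members also used these same libraries. The highest mutant library was less than 2 times the lowest in 81.8% of the 66 members, beside 95.2% of the genes in that range and 97.6% of all 17679 expressed genes. The 12 members with a wider range included *NCED3*, AT1G31750, *SADHU3-2* and *PDF2.1*. *vip3-1* replicate 3 exceeded the mean of the other 2 mutant libraries by more than 2 times in 6 members, *NCED3*, AT1G56040, AT1G31750, AT5G02170, *PDF2.1* and AT1G72100. It was the highest mutant library in 45.5% of members and in 44.7% of the expressed genes. In WT, replicate 3 exceeded the mean of the other 2 libraries by more than 2 times in 7 members and was below 0.5 times that mean in 10, among them *FAF2*, *SYN1*, *XTH19*, *HDG8* and AT5G35935. Without it, 9 members changed their ratio by more than 1.5 times, among them AT4G13680 from 4.44 to 36.8, AT1G56040 from 8.42 to 37.4, AT3G24780 from 8.26 to 27.2 and *CYP83A1* from 11.1 to 21.3.

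The direct neighbours of members were read from the same table. Of 79 neighbours that were tested and are no members, 21 were called higher, 26.6% beside 14.6% of all genes, and 7 lower, 8.86% beside 16.1%. These shares were not tested against each other. Without WT replicate 2 the counts were 12 and 4, and without *vip3-1* replicates 1, 2 and 3 they were 14 and 1, 11 and 1, and 13 and 3. Without WT replicate 1 there were 15 and 2, and without WT replicate 3 there were 28 and 8. Within 1000 bases the counts with all libraries were 13 and 4 of 50. Pseudogenes had such neighbours too. AT1G20400 lies 630 bases from AT1G20390, shares 274 bases at 99.3% identity with it and rose from 0.104 ± 0.0151 to 0.688 ± 0.148 CPM (adjusted p = 0.00359). AT5G19100 lies 398 bases from AT5G19097 and rose from 0.342 ± 0.0881 to 1.45 ± 0.269 CPM (adjusted p = 0.0055). The neighbours were not chosen independently of the members.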

How the data were processed

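The 6 libraries analysed were 3 of WT and 3 of *vip3-1*. The authors trimmed reads with Trimmomatic, mapped them with Bowtie2 2.0.5 and TopHat2 2.0.6 to the Ensembl TAIR10 genome, handled alignments with SAMtools 1.2 and used Cufflinks 2.1.1; strand and read layout are not given in the sources used here. The deposited estimated counts per gene are unscaled, and 1.47% of the values were not whole, so they were rounded for the fits although whole counts had been foreseen. The deposited FPKM values, computed by the authors, served as an alternative. A deposited table of the authors' own comparison, with group values, fold changes and p-values, was not used. Libraries held 50040048 to 69033269 counts.

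CPM and the thresholds were computed in Python 3.11.15 with pandas 2.3.3, and figures were drawn with matplotlib 3.10.9. Genes other than members were tested with edgeR 4.0.16 in R 4.3.3 (TMM, filterByExpr, quasi-likelihood F-test, genotype only, Benjamini-Hochberg adjustment over 20690 genes). Alternatives used DESeq2 1.42.0, limma 3.58.1, other filters and scalings, a replicate block and the removal of each library. The fit was checked on simulated counts. Within a genotype no 2 libraries were alike within sampling noise (chi-square per degree of freedom of 22.6 or more). Deviations of same-numbered libraries from their genotype means correlated at r = 0.22, 0.19 and 0.37 across genes, which are not independent replicates, a hint of pairing from the data that no label states, and the replicate block was fitted as an alternative only; WT replicate 1 correlated more with *vip3-1* replicate 2, at 0.29.

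Positions, gene types and promoter windows came from RefSeq TAIR10.1, in which all 66 members were matched, and copies were searched with blastn 2.17.0. The members and the gene lists were chosen with earlier results of these data known, and families and role groups were set after the values were seen. The families hold the relatives that were compared here and may not be complete. Members were named if they were among the 20 with the largest ratio or the 10 most abundant, were on a list, shared a family or a position with another, or lay at the thresholds, and other members were named to account for all 66. Relatives and neighbours were named after their values were seen. Counting error alone underlies the floor of 3 counts per library used for a fold against 0.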

Additional observations from a re-analysis of the deposited data

How the results depend on the processing

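The thresholds gave 66 members. A fold of 3 gave 104 genes and a fold of 8 gave 35, and leaving out single libraries gave between 71 and 100, the most without *vip3-1* replicate 2. TMM scaling gave 76 genes, DESeq2 size factors 78 and FPKM 84, of which 55 were among the 66; of the 11 that FPKM left out, 10 were under 1 FPKM in a *vip3-1* library. A lowest level of 0.5 CPM gave 92 genes and of 2 CPM 45. Of 726 alternative values of the members' log2 folds, 113 moved by more than the spread between replicates. The lowest of the 726 was 0.379, and their direction was fixed by the choice of members. Over all genes, 3031 were called higher and 3323 lower. The replicate block gave 3781 and 3607, and DESeq2 4063 and 4021. limma on log2(FPKM + 1) gave 1927 and 1974, and on log2(FPKM + 0.1) 1997 and 2014; the cause was not tested. Without TMM the counts were 2270 and 4786. Leaving out single libraries gave between 1282 and 3956 higher and between 1391 and 4099 lower. The median SD of log2 CPM was 0.25 with a prior count of 2 or of 0.5. Members with few WT counts have folds that depth limits.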
